A study of Mus musculus with 7 samples.

Results

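The 9 genes described here were chosen as a list by name. All but Kmt2e encode enzymes that write or remove marks on lysine 27 of histone H3, or methylate the same histone beside them. The 9 are the acetyltransferase genes Crebbp and Ep300, the deacetylase genes Hdac1 and Hdac2, the demethylase gene Kdm6b, and the trithorax-related genes Kmt2a, Kmt2c, Kmt2d and Kmt2e. They are 9 of 21887 protein-coding genes, counted over the 19 autosomes and the sex chromosomes. H3K27ac and H3K27me3 were mapped by chromatin immunoprecipitation and sequencing in globose basal cells, the dividing progenitors of the mouse olfactory epithelium. The 2 H3K27ac and 2 H3K27me3 libraries all came from adult wild-type mice in which methimazole, which is toxic to this epithelium, had caused a lesion 7 to 10 days earlier. Each replicate pooled the cells of 3 mice, enriched with an antibody to c-Kit. The strain is not given in the labels, no group was left without a lesion, and c-Kit is also borne by mast cells and melanocytes. The 3 input libraries were not analysed here, and the labels name 1 of them for both H3K27ac replicate 2 and H3K27me3 replicate 1.

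Acetylation and trimethylation compete for the same residue, so a nucleosome tail can bear one or the other there. CBP and p300, the products of Crebbp and Ep300, place H3K27ac at active promoters and enhancers, and histone deacetylases 1 and 2 remove acetyl groups as part of larger repressor complexes. Polycomb Repressive Complex 2 places H3K27me3, and the enzyme of Kdm6b (also called Jmjd3) takes it off. The trithorax group opposes Polycomb silencing, and its Kmt2 (MLL) enzymes, other than the product of Kmt2e, methylate lysine 4 of the same histone.

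For each gene the authors' broad peaks were taken over the gene body and 5 kb on each side, on GRCm38. A mark was counted at a gene where peaks of both its libraries covered at least 1 bp of the window in common. All 9 genes carried H3K27ac, against 68.8% of all protein-coding genes. Kmt2a, 1 of the 9, carried H3K27me3, against 39.1% of all genes, and the same gene was the only one of the 9 with both marks, against 29.1%. The windows of the 9 genes were long, from 31860 bp at Kdm6b to 237061 bp at Kmt2c, with a median of 75869 bp beside 27168 bp for all genes. Among the 9520 genes whose windows were at least as long as that of Kdm6b, 82.4% carried H3K27ac and 45.2% H3K27me3. With the flanks left out, all 9 genes carried H3K27ac and 0 of 9 carried H3K27me3, against 65.4% and 32.3% of all genes. These counts are descriptions, since no test was made over a list of this size chosen by name.

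A count at gene starts removed the length of the gene body from the search. Within 1 kb of a listed start, or of either gene end for genes without an entry in the table of starts, 9 of 9 genes carried H3K27ac and 0 of 9 carried H3K27me3. The shares of all protein-coding genes were 61.0% and 25.8%. Hdac1, Kdm6b and Kmt2e had no entry and were searched at both ends, and some genes have more than 1 listed start, so the searched length differed between genes. When only peaks with a −log10 q of at least 5 were kept, all 9 genes still carried H3K27ac and none of the 9 carried H3K27me3, against 52.5% and 5.65% of all genes.

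Strength was read from the fold enrichment that the authors gave each peak over its background, a ratio averaged over the broad region. Genes were ranked against all genes within each library, and a mean or ratio of the 2 libraries describes their spread, since the values were not scaled between libraries. The median over the 9 genes of the strongest H3K27ac peak in the window was 19.4 in replicate 1 and 12.1 in replicate 2. Over all genes, with 0 where there was no peak, the medians were 6.63 and 5.16. In each H3K27ac library 9 of 9 genes stood above that median. Over genes with a peak the medians were 8.984 and 6.965, and of the 9 genes only Hdac1 in replicate 2, at 6.20, lay below. The windows of the 9 genes were long (median 75869 bp beside 27168 bp), and these values and ranks were not matched for length. In replicate 1, 6 of the 9 genes, and in replicate 2, 5 of the 9, stood in the highest 10% of all genes. For H3K27me3 the medians over the 9 genes were 3.18 and 0, beside 3.33 and 0 over all genes, and no gene of the 9 reached the highest 10% in either library.

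**Figure D1:**
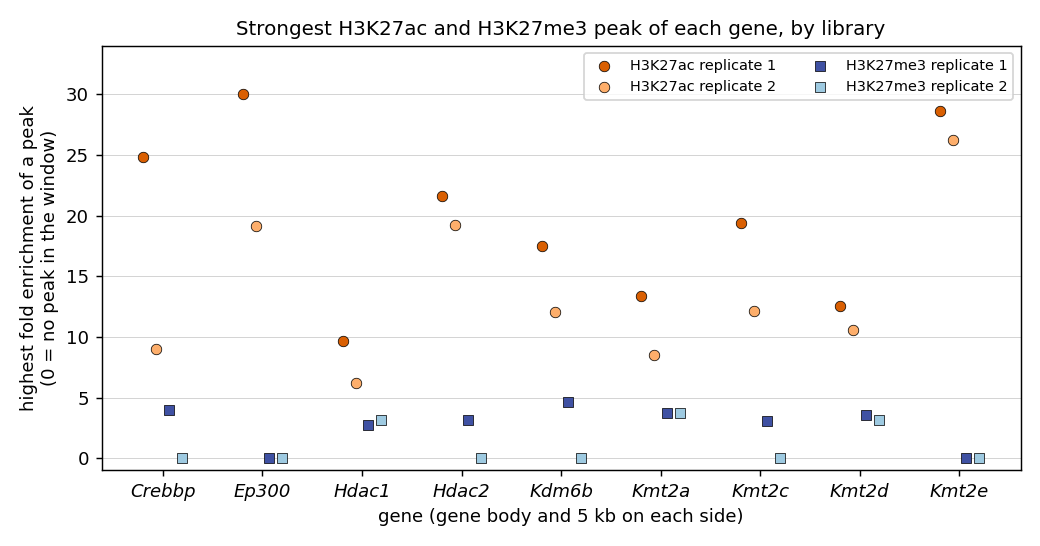
Highest fold enrichment (vertical axis, a ratio; 0 where the window held no peak) of an H3K27ac peak (circles) and an H3K27me3 peak (squares) over each gene body and 5 kb on each side, 1 point per library. The H3K27ac points run from 6.20 at Hdac1 to 30.0 at Ep300, and no H3K27me3 point lies above 4.65.

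In order of the mean of both H3K27ac libraries the genes ran from Kmt2e (27.4 ± 1.71, SD, n = 2) through Ep300 (24.6 ± 7.71), Hdac2 (20.4 ± 1.72), Crebbp (16.9 ± 11.2), Kmt2c (15.8 ± 5.10), Kdm6b (14.8 ± 3.83), Kmt2d (11.5 ± 1.43) and Kmt2a (10.9 ± 3.45) to Hdac1 (7.93 ± 2.44). None of the 8 neighbouring pairs in this order lay apart by more than the larger SD of the pair. Both Kmt2e values lay above every value of the other genes except that of Ep300 in replicate 1. The value of Hdac1 was the lowest of the 9 in each library.

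The paralogous acetyltransferase genes had their strongest acetylation at the start, and at Ep300 the start held all of the H3K27ac shared by both libraries. Crebbp lies on chromosome 16 from 4081334 to 4213957, on the minus strand, and Ep300 on chromosome 15 from 81586209 to 81652077, on the plus strand. The start sequences are shown as those of a paralogous pair. They lay wholly under the strongest H3K27ac peaks, as did those of Hdac2, Kmt2a, Kmt2c and Kmt2d. They are RefSeq sequences on GRCm38.p6, from 250 bases before to 50 bases after the start, so that base 251 is the first base transcribed, at chr16:4213355-4213654 (minus strand) and chr15:81585964-81586263 (plus strand). Capitals mark matches on either strand to the GC box GGGCGG, to the ETS core motif CCGGAA, to the box named CCAAT or to the TATA box TATAAA.
Crebbp: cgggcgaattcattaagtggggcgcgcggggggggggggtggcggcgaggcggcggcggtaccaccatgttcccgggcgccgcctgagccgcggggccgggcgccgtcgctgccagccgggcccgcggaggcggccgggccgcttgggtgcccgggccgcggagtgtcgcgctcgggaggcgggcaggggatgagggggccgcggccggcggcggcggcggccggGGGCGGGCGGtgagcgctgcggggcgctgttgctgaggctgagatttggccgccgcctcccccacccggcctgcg
Ep300: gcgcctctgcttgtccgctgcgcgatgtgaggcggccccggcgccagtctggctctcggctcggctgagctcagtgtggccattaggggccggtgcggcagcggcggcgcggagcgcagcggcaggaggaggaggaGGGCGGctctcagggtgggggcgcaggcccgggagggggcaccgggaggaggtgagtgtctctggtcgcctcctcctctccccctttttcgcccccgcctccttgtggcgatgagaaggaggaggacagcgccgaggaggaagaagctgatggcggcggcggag

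Ep300 had a peak over its start of 2056 bp in H3K27ac replicate 1 and 2134 bp in replicate 2, with fold enrichment of 30.0 and 19.1. In replicate 1 99.9% of all genes had a lower strongest peak than Ep300, and in replicate 2 99.5% did. Crebbp had a peak of 1962 bp and 2135 bp over its start, with fold enrichment of 24.8 in replicate 1 and 8.97 in replicate 2. The ratio of the libraries was 2.77 at Crebbp, the widest of the 9 genes, whereas the others lay between 1.09 at Kmt2e and 1.59 at Kmt2c. The share of genes with a lower strongest peak was 99.4% and 78.4% for Crebbp, so the high rank of this gene rested on replicate 1.

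A further region shared by both H3K27ac libraries in the Crebbp window, at fold enrichment of 11.5 and 8.81, lay in the flank over the start of the neighbour Trap1. Weak peaks inside both genes were seen in 1 library only. Crebbp had 3 of them in replicate 2 and Ep300 had 2 in replicate 1, all between 3.02 and 3.69. Ep300 had no H3K27me3 peak in either library. Crebbp had 2 H3K27me3 peaks in replicate 1, at 2.72 and 3.93, both in its flanks and both partly under its shared H3K27ac, and 0 in replicate 2.

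The deacetylase genes differed from each other in the shape of their acetylation. At Hdac2, on chromosome 10 from 36974297 to 37001889, 1 H3K27ac region of 1452 bp was shared by both libraries, over the start. Its fold enrichment was 21.7 in replicate 1 and 19.2 in replicate 2, which 98.2% and 99.6% of all genes did not reach. The start sequence of Hdac2 (chr10:36974294-36974593, plus strand, GRCm38.p6) is shown because an H3K27me3 peak of replicate 1 also touched it, with the capitals as above.
Hdac2: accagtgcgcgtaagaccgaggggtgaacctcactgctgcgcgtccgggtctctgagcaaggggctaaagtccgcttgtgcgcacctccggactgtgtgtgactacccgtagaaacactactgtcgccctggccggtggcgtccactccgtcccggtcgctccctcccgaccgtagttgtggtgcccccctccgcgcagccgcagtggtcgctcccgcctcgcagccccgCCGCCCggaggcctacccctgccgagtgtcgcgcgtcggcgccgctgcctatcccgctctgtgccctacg

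That H3K27me3 peak at Hdac2 was 199 bp long, had a fold enrichment of 3.18, and covered 121 of the 300 bases. Replicate 2 had no H3K27me3 peak in the Hdac2 window. Both libraries of H3K27ac covered all 300 bases.

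Hdac1 lies on chromosome 4 from 129516104 to 129542646, with Marcksl1 only 123 bp from its lower-coordinate end. The strongest H3K27ac peak of the Hdac1 window, at 9.65 in replicate 1 and 6.20 in replicate 2, covered the start of Marcksl1. In replicate 1 that peak ended before Hdac1, and in replicate 2 the peak was 10121 bp long and reached into the gene. Inside the gene body the highest value was 5.66 in replicate 1, at the upper-coordinate end. The replicate 2 peak at that end stood at 5.31, below the 6.20 of the long peak. A region of 1306 bp there was shared by both libraries, and a second shared region of 1477 bp lay at the lower end. Hdac1 had 1 weak H3K27me3 peak in each library, at 2.72 and 3.17, but in different places, so the libraries shared no base.

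Kdm6b carried the widest acetylation of the 9 genes. It is a short gene, 21860 bp on chromosome 11 from 69398508 to 69420367, and 4 regions shared by both H3K27ac libraries covered 20683 bp or 64.9% of its window. Of all protein-coding genes, 99.2% had a smaller covered share and 98.2% fewer covered bases. H3K27ac covered 74.9% of the window in replicate 1 and 72.8% in replicate 2, so the libraries differed little in extent. Replicate 1 split the upper part of the gene into peaks of 8587 bp and 3847 bp, with fold enrichment of 17.5 and 17.1. Replicate 2 had a single peak of 13996 bp there, at 12.1. Another peak in each library, of 7911 bp at 8.09 and 8851 bp at 5.85, covered the lower end of Kdm6b. Both of these peaks also ran over the neighbours Tmem88 and Naa38 and into Cyb5d1. The noncoding gene Gm51903 overlaps the upper part of Kdm6b, and a peak of each library there reached into the neighbour Dnah2. The mark there cannot be assigned to a single one of these genes.

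The H3K27me3 libraries disagreed at Kdm6b. Replicate 1 had 7 peaks in the window and replicate 2 had 0. The 7 peaks had fold enrichment from 2.70 to 4.65, and the strongest lay outside Kdm6b, within the neighbouring gene Dnah2. Of the 7 peaks, 4 overlapped bases that both H3K27ac libraries covered.

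**Figure D2:**
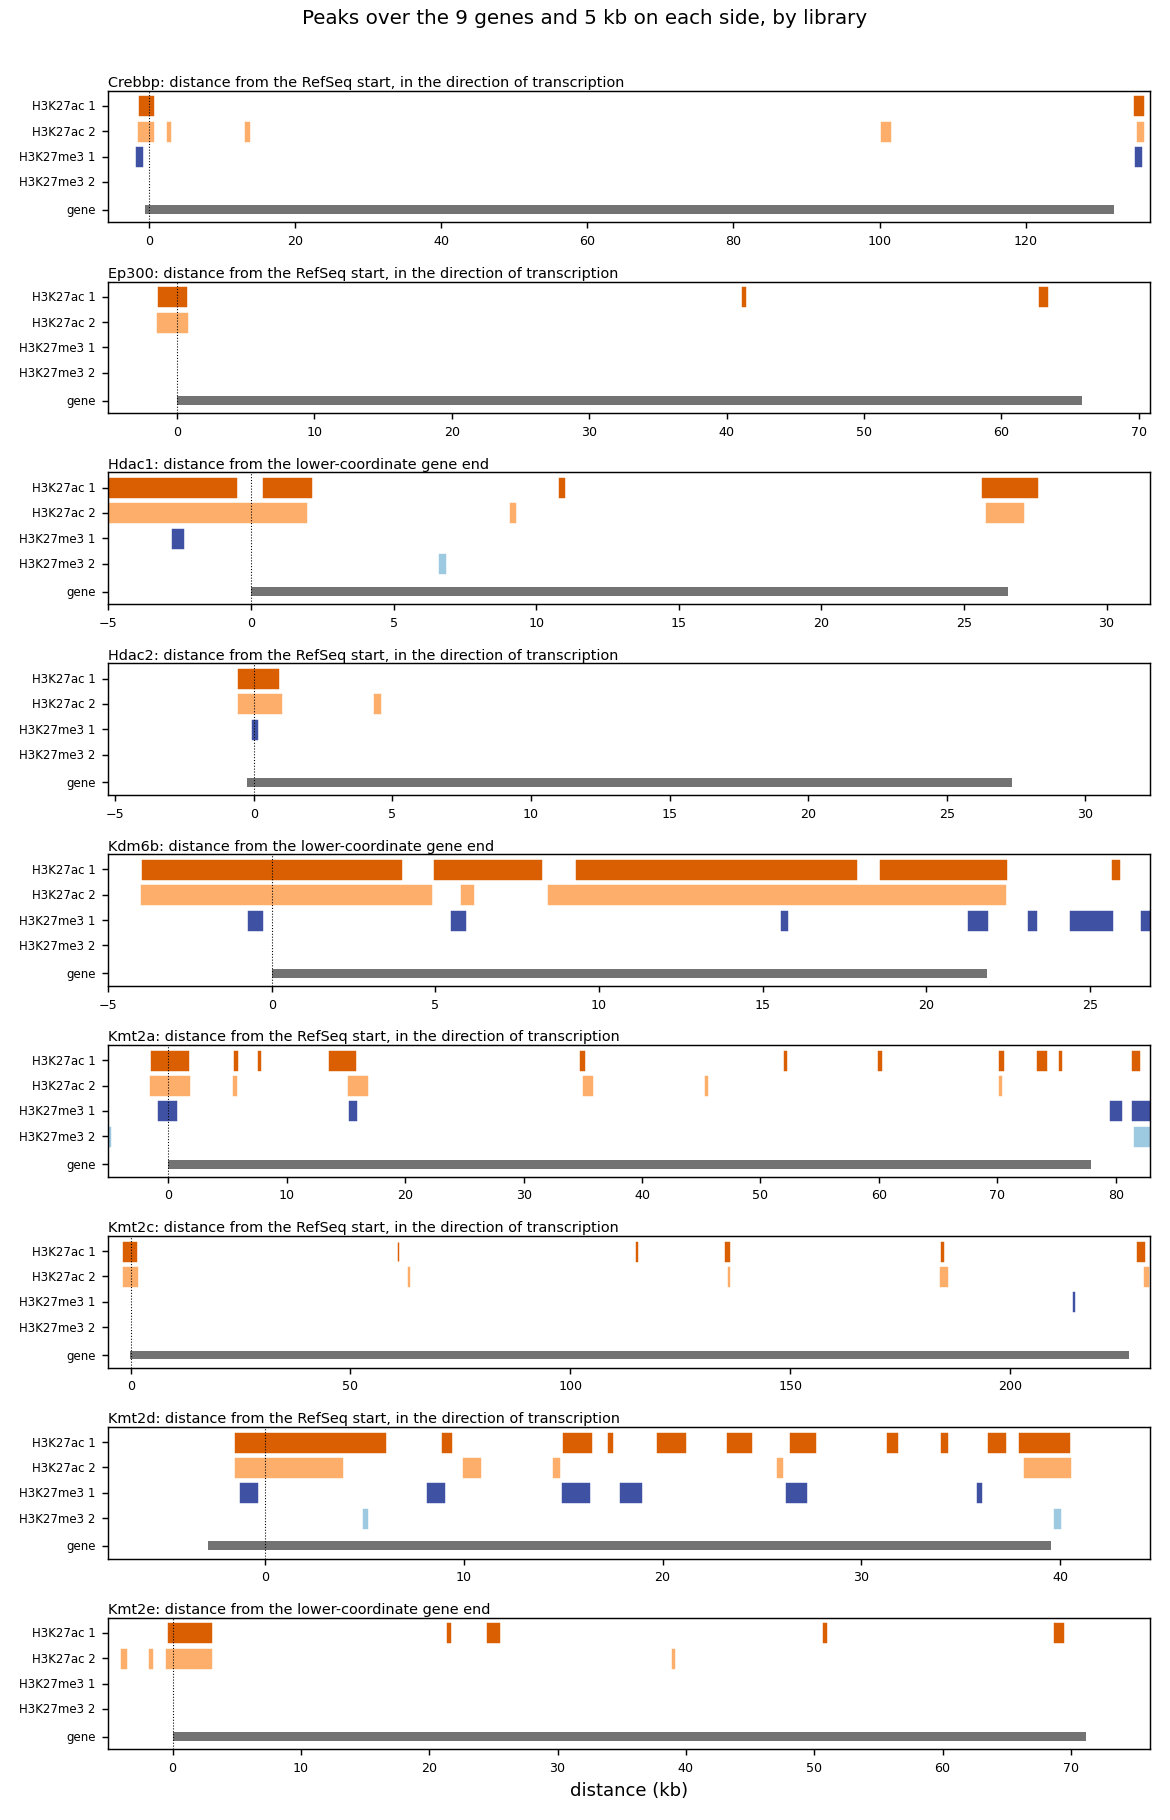
Positions of all peaks in each library over the 9 genes and 5 kb on each side, with distance in kb on the horizontal axis from the RefSeq start in the direction of transcription, or from the lower-coordinate gene end for Hdac1, Kdm6b and Kmt2e. Coloured bars are peaks and the grey bar is the gene; H3K27ac of both libraries stands at the start of Crebbp, Ep300, Hdac2, Kmt2a, Kmt2c and Kmt2d and along most of Kdm6b, whereas H3K27me3 of both libraries coincides only at the far edge of the Kmt2a window.

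Kmt2a (MLL1), the mammalian relative of fly trithorax, lies on chromosome 9 from 44803355 to 44881352 on the minus strand. Its start was covered by an H3K27ac peak of 3131 bp and 3225 bp, at 13.4 in replicate 1 and 8.47 in replicate 2. The gene had 5 shared H3K27ac regions, the most of the 9, of which 4 lay inside the gene and were weak, with fold enrichment from 2.59 to 3.76 in the contributing peaks. The start sequence of Kmt2a (chr9:44881240-44881539, minus strand, GRCm38.p6) is shown because an H3K27me3 peak of replicate 1 covered all 300 bases of it, with the capitals as above.
Kmt2a: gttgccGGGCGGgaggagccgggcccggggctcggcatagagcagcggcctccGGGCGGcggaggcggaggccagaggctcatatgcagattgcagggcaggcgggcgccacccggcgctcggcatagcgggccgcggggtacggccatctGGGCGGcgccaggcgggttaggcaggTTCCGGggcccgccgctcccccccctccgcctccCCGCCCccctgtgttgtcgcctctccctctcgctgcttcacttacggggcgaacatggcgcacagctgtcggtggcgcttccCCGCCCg

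This H3K27me3 peak over the Kmt2a start was 1585 bp long with a fold enrichment of 3.10. Replicate 2 had no H3K27me3 peak over that start. The H3K27me3 that both libraries shared in the Kmt2a window, 1415 bp from 44798355 to 44799769, lay in the flank beyond the 3′ end of the gene. The peaks that formed it stood at 3.75 and 3.58 and covered the start of Tmem25. The region did not reach the body of Kmt2a. The noncoding gene Gm39326 overlaps the start of Kmt2a.

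Kmt2c and Kmt2d encode MLL3 and MLL4, which methylate lysine 4 of histone H3 at enhancers. Kmt2c is the longest of the 9 genes, at 227061 bp on chromosome 5 from 25271795 to 25498855. Its start peak was 2823 bp and 3186 bp long, at 19.4 in replicate 1 and 12.2 in replicate 2, and also covered the start of the noncoding gene 4831440E17Rik. Other H3K27ac peaks of Kmt2c did not exceed 4.28, and only 1.40% of its window was covered in both libraries, the smallest share of the 9. Its single H3K27me3 peak, 199 bp in replicate 1 at 3.07, lay inside the gene.

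Kmt2d, on chromosome 15 from 98831669 to 98874077, had a start region of 5392 bp shared by both H3K27ac libraries, at 12.6 and 10.5. A second shared region of 2283 bp, at 7.59 and 7.89, lay at the other end of Kmt2d and covered the start of Prkag1. Between the 2 regions replicate 1 had 9 further H3K27ac peaks and replicate 2 had 3, all between 2.65 and 3.92, and none of them shared a base with the other library. H3K27me3 gave 6 peaks in replicate 1 and 2 in replicate 2, from 2.85 to 3.55, again with no base in common.

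Kmt2e (MLL5) has the SET domain of the family but is not known as a lysine 4 methyltransferase. The H3K27ac shared by both libraries lay in 1 region of 3415 bp at the lower-coordinate end of the gene, on chromosome 5 from 23432645 to 23436059, which also covered the start of the noncoding gene 5031425E22Rik. Fold enrichment was 28.6 in replicate 1 and 26.2 in replicate 2, with a −log10 q of 163.9 and 80.2. The strongest peak was lower than that of Kmt2e in 99.86% of all genes in replicate 1 and in 99.98% in replicate 2. Each library also had peaks of its own in the window, 4 in replicate 1 with fold enrichment up to 5.03 and 3 in replicate 2 up to 4.01. Neither H3K27me3 library had a peak in its window, as at Ep300.

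Breadth and strength of H3K27ac did not go together among the 9 genes. The share of the window covered in both libraries was 64.9% at Kdm6b, 19.9% at Hdac1 and 14.6% at Kmt2d, and between 1.40% and 4.73% at the other 6 genes. The median of 4.21% compares with 3.02% over all genes, and 6 of the 9 genes stood above that value. Hdac1, the gene with the weakest strongest peak, thus had the second largest covered share, although Kmt2d had more covered bases (7675 bp against 7276 bp). Most of the Hdac1 coverage lay outside the gene. A flank region that covered the start of Marcksl1 held 4493 bp of it, and the body of Hdac1 held 2255 bp. Ep300 and Kmt2e, with the strongest peaks, had 2.71% and 4.21%. The share depends on window length, and a fold enrichment averaged over a long region is lower than at its summit.

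**Figure D3:**
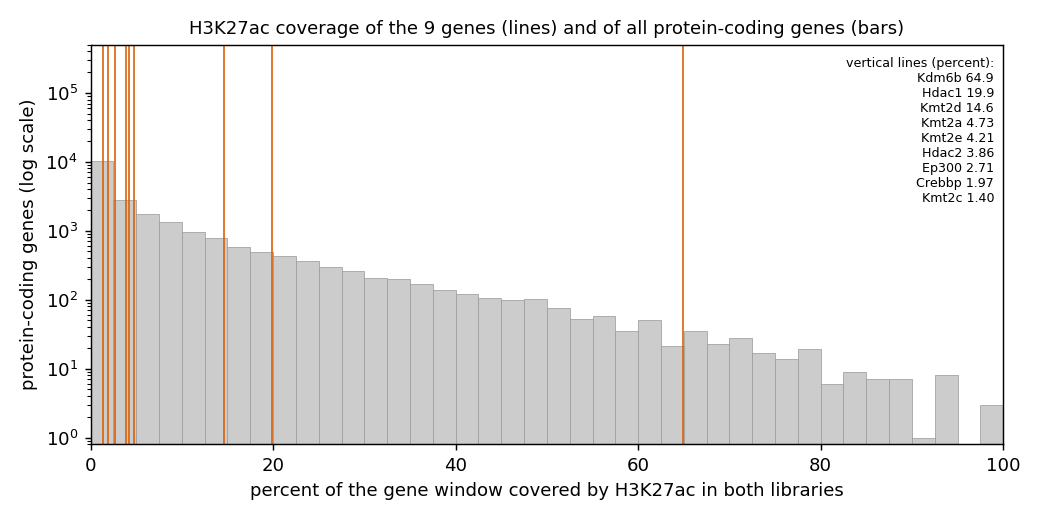
Percent of the gene window covered by H3K27ac in both libraries (horizontal axis) for all 21887 protein-coding genes (grey bars, number of genes on a log scale) and for the 9 genes (vertical lines). Kdm6b lies at 64.9%, and 6 of the 9 genes lie below 5%.

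The strong H3K27ac peaks were repeated between libraries and the weak ones often were not. Over the 9 windows replicate 1 had 48 H3K27ac peaks and replicate 2 had 34. Of the peaks with a fold enrichment of at least 5, 14 of 15 in replicate 1 and 13 of 13 in replicate 2 shared at least 1 base with the other library, beside 96.5% and 99.7% of such peaks in the whole lists. The exception in replicate 1 was a peak of 217 bp inside Kmt2e at 5.03. Of the weaker peaks, 8 of 33 and 7 of 21 shared a base, beside 49.2% and 70.2% in the lists. In the 6 genes with an entry in the table of starts, the strongest H3K27ac peak covered the start in both libraries.

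The H3K27me3 peaks were weak and mostly confined to 1 library. Replicate 1 had 22 peaks over 7 of the 9 genes and replicate 2 had 5 peaks over 3 of them, Hdac1, Kmt2a and Kmt2d. By replicate 1 alone, 66.2% of all genes and 74.9% of genes with windows as long had a peak in the window, so 7 of 9 is near the background. By replicate 2 alone the shares were 49.6% and 57.8%. In replicate 1, 1 of 22 peaks and in replicate 2, 1 of 5 shared a base with the other library, the pair beside Kmt2a, while 42.1% and 57.0% of the whole lists did. No H3K27me3 peak of the 9 genes exceeded a fold enrichment of 4.65 or a −log10 q of 3.84, and their medians of 2.98 and 3.17 compare with 3.46 and 3.21 in the whole lists. In replicate 1, 11 of the 22 peaks, at 6 genes, overlapped bases covered by both H3K27ac libraries. Of the 43192 replicate 1 peaks that touched the window of any gene with H3K27ac, 29.6% did so. In replicate 2, 1 of the 5 peaks did, against 26.0% of the 26040 such peaks. Whether both marks were on the same cells was not tested.

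The starts that could be read shared a composition rich in CpG. Of the 9 genes, 6, namely Crebbp, Ep300, Hdac2, Kmt2a, Kmt2c and Kmt2d, matched the RefSeq table of start sequences. G and C made up from 62.7% of the 300 bases at Kmt2d to 88.0% at Kmt2c, against a median of 56.3% over 21263 start sequences of 17492 protein-coding genes. The ratio of observed to expected CpG ran from 0.796 at Ep300 to 1.02 at Crebbp and Kmt2c, against a median of 0.567. Of all start sequences, 69.2% had less G and C than Kmt2d and 71.3% a lower CpG ratio than Ep300. The comparison was not limited to starts with H3K27ac. The motif GGGCGG, a GC box, was in all 6 sequences on at least 1 strand, from 1 match at Ep300 and Hdac2 to 12 at Kmt2c, and 46.2% of all start sequences hold it. CCGGAA was found in Kmt2a alone among the 6 (18.7% of all), and CCAAT (38.2% of all) and TATAAA (12.6%) in none. Overlapping matches were counted, and a match of letters is not a bound site.

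Among other genes of the same chemistry, acetylation was as general and H3K27me3 varied. All 59 genes of 6 wider lists carried H3K27ac and 16 carried H3K27me3, against the 68.8% and 39.1% of all genes. The remaining H3K27 demethylase genes, Kdm6a and Uty, had no H3K27me3 peak, and Kdm6a stood at 26.2 and 18.5 for H3K27ac while Uty stood at 5.77 and 7.28. Of 10 acetyltransferase and acetyl-lysine reader genes 1 carried H3K27me3, namely Brd3, over 182 bp of its window. Of 14 genes for MLL complex subunits and methyltransferases, Setd1b, Hcfc1 and Cxxc1 carried it.

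The other zinc-dependent deacetylase genes included genes with H3K27me3 in both libraries, which Hdac1 and Hdac2 did not have. It was at 6 of 9, namely Hdac3, Hdac4, Hdac6, Hdac7, Hdac8 and Hdac9, against 39.1% of all genes. The shared H3K27me3 was short at 3 of them, with 133 bp at Hdac3, 199 bp at Hdac4 and 97 bp at Hdac8. With at least 500 bp required, 3 of 9 remained, against 31.8% of all genes. The strongest H3K27me3 peak of the list was that of Hdac9 in replicate 1, at 6.26, and that of Hdac6 in replicate 2, at 4.24. Hdac9 has a window of 879516 bp, and its shared H3K27me3 of 1548 bp is 0.176% of that. The windows of Hdac4 and Hdac8 were also long, at 276924 bp and 230744 bp. Those of Hdac3, Hdac6 and Hdac7 were 28045 bp, 27932 bp and 61842 bp, beside a median of 27168 bp for all genes. Among genes with windows of at least 31860 bp, 45.2% carried H3K27me3. At Hdac7, an enzyme of the class that shuttles between nucleus and cytoplasm, H3K27me3 covered 3125 bp and was at the gene start, with H3K27ac over 47.4% of the window. The difference between the deacetylases was not tested.

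Of 14 genes for partners of Hdac1 and Hdac2, 3 carried H3K27me3, namely the NuRD genes Chd4, Mta1 and Mta3. Among 10 genes for trithorax-group remodelling subunits Smarca2, Smarcc1 and Arid1b did, and 39.1% of all genes did. Arid1b stood at 31.9 and 18.2 for H3K27ac. Over all 59 genes the medians of the strongest H3K27ac peak were 12.6 and 9.95, beside 19.4 and 12.1 over the 9 genes. At the gene start 56 of the 59 carried H3K27ac and 5 carried H3K27me3, against 61.0% and 25.8% of all genes.

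**Figure D4:**
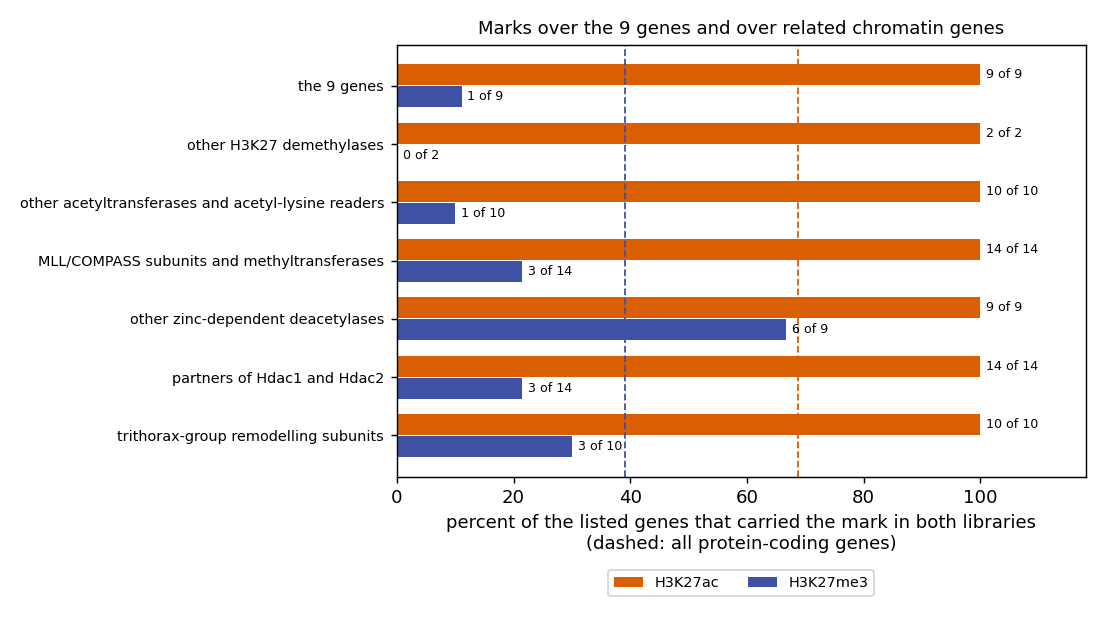
Percent of the genes of each list (horizontal axis) that carried H3K27ac or H3K27me3 in both libraries over the gene body and 5 kb on each side, with the number of genes beside each bar and dashed lines for all protein-coding genes (68.8% and 39.1%). H3K27ac bars reach all genes of every list, and H3K27me3 bars lie below the dashed line except in the other zinc-dependent deacetylases (6 of 9).

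The genes outside the 9 whose strongest peaks in the 4 libraries were most like the median of the 9 were Nfe2l1, Ubxn2a and Ncoa1. Their Euclidean distances on the log2 scale, with a fold of 1 where there was no peak, were 0.0537, 0.0614 and 0.0649. Kmt2c lay at 0.0503 and Hdac1, the farthest of the 9, at 2.18.

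Marker genes of the cell type labelled and of other cells were read in the same windows. All 11 globose basal cell genes carried H3K27ac, and 7 of these, Kit among them, also carried H3K27me3. The shares of all genes were 68.8% with H3K27ac and 29.1% with both marks. Kit carried both marks at its start as well. Its strongest H3K27ac peaks stood at 6.80 and 5.46, and its strongest H3K27me3 peaks at 6.86 and 6.89. H3K27ac was at 0 of 5 mast cell genes, 2 of 4 melanocyte genes and 4 of 5 leukocyte genes. It was at 4 of 5 horizontal basal cell genes, 4 of 4 sustentacular cell genes and 4 of 4 mature neuron genes. The presence of H3K27ac in the window therefore did not tell globose basal cells from the other cells of the epithelium. At the gene start it was at 11 of 11 globose basal cell genes and 2 of 5 horizontal basal cell genes. It was there at 4 of 4 sustentacular cell and 3 of 4 mature neuron genes, against 61.0% of all genes. Over the windows H3K27me3, at 39.1% of all genes, was at 2 of the mast cell genes, 1 of the melanocyte and 3 of the leukocyte genes. It was at 4 of the horizontal basal cell, 1 of the sustentacular cell and 1 of the mature neuron genes. The part of other cells in the acetylation of the 9 genes was not tested.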

How the data were processed

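The analysis used the 4 peak lists of the immunoprecipitated libraries, grouped by the sample titles. The submitters' processing notes name fastp, Bowtie, Picard, MACS2 and GRCm38 (mm10). Their versions are not given in the sources used here. Per the file layout, the authors called broad peaks for each library separately and deposited for each peak a fold enrichment (a linear ratio), a −log10 p, a −log10 q and a score, the last of which was not used. The smallest −log10 q was 1.00 to 1.01 in the 4 lists, a q of about 0.1. Read totals were not used here, so depth is unknown, a missing peak means none at this threshold and depth, and no counting interval is given.

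Gene coordinates and start sequences came from RefSeq tables of GRCm38.p6. The 9 genes and all lists were chosen with earlier results of these data known. All 9 genes are named, other genes by list order, by nearness of profile or because their start lay under a named peak; Hdac9, Hdac7, Kdm6a, Uty and Arid1b were singled out after their values were seen. Gene start windows used the table of starts, which held 17492 of the 21887 genes, and either gene end for the rest. Hdac1, Kdm6b and Kmt2e have no entry there. Intervals were computed with Python 3.11.15, numpy 2.4.6 and pandas 2.3.3, on code tested on simulated data. With 2 libraries a mark, an exact permutation test of marks could not go below p = 0.333, and none was made. Whether replicates came from separate pools is taken from the labels' wording.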

Additional observations from a re-analysis of the deposited data

How the results depend on the processing

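H3K27ac at 9 of 9 genes, over the window and at the start, held under every alternative tried. The share of all genes with H3K27ac was 64.4% with a −log10 q of at least 2, 52.5% with at least 5, 64.6% with 500 bp in common and 74.5% with either library. It was 65.4% for gene bodies, 70.9% with flanks of 10 kb, 61.0% within 1 kb of the start, 82.4% in long windows (chosen after seeing the data), and 68.8% to 73.1% with 1 library left out. At the start it was 56.9%, 46.5%, 56.1% and 66.7% under the first 4 of these, and 61.0% to 65.5% with 1 library left out. H3K27me3, and likewise both marks together, were at 0 of 9 genes with a −log10 q of at least 5, in gene bodies and at the start. They were at 3 with a peak of each library anywhere in the window, at 7 with either library, and at 1 to 7 with 1 library left out (3 without H3K27me3 replicate 1 and 7 without H3K27me3 replicate 2). The share of all genes with H3K27me3 was 23.4% and 5.65% at the 2 q limits, 69.5% with either library, 25.8% at the start, and 39.1% to 66.2% with 1 library left out. With both marks it was 14.8%, 1.51%, 58.3%, 15.6%, and 30.9% to 51.4%. The highest H3K27ac fold enrichment of each of the 9 genes moved by no more than its SD with other flanks or q limits. With 1 library left out only the value of the other remains, which at Crebbp is 8.97 or 24.8. No paired analysis was possible because no test was made, and the labels give 1 input to H3K27ac replicate 2 and H3K27me3 replicate 1, so equal numbers do not pair the libraries. Depth is unknown, so a gene without a peak may lack reads.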
